A study of Macaca fascicularis and Macaca mulatta and Papio anubis with 20 samples.

Results

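The 10 genes described here encode proteins that are secreted into, or anchored in, the connective tissue of nerve and ganglion: MGP, MFAP5, EFEMP1, FBLN1, AEBP1, THBS4, TGFBI, PI16, CHRDL1 and GPC3. They were chosen by their measured values, for a low level in neuron-rich spots or for a difference between the labelled batches, so both contrasts are described here and not tested. They are 10 of the 15068 features with a symbol, and of the 22000 features in all, that were counted in the sections labelled Macaca fascicularis. The tissue is the dorsal root ganglion of non-human primates, which holds the cell bodies of sensory neurons. Visium spatial transcriptomics reads transcripts from a tissue section on an array of barcoded spots, and counts molecules by their unique molecular identifiers (UMIs). All ganglia were fresh frozen, bought from one supplier, cut at 10 µm with 100 µm between sections, stained with haematoxylin and eosin and permeabilized for 12 min, and no treatment, genotype or age is labelled. Of the 20 sections, 16 were labelled M. fascicularis: 4 sections of a female and 4 of a male in batch 1, and 4 of a female and 4 of a male in batch 2. The other sections were 2 labelled Macaca mulatta and 2 labelled Papio anubis, all in batch 2 and with no sex given. Sections that share a title code were treated as 1 specimen, which the labels do not state. P-values of the tests run here measure only the spread between these specimens, and for classes of spots the spread of their difference. The authors' deposited p-values on spatial clustering, given per section, do not measure that spread.

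Connective tissue wraps a ganglion in layers: a capsule continuous with the epineurium lies outside, perineurium encloses the fascicles, and a loose endoneurial matrix runs between nerve fibres and around the neurons with their satellite glia. Fibroblasts and the muscle cells of vessel walls lay down collagens, microfibrils of fibrillin that carry elastin, and smaller proteins that bind both. MFAP5 [ENSMFAG00000064192] is a microfibril protein that binds fibrillin, and EFEMP1 [ENSMFAG00000044235] (fibulin-3) and FBLN1 [ENSMFAG00000040388] (fibulin-1) are glycoproteins of elastic fibres and basement membranes. MGP [ENSMFAG00000003266], matrix Gla protein, is an inhibitor of calcification that vascular smooth muscle secretes. AEBP1 [ENSMFAG00000046276] and TGFBI [ENSMFAG00000039509] encode secreted proteins that bind collagen, and THBS4 [ENSMFAG00000033394] is a thrombospondin, one of the matricellular proteins that tune how cells meet the matrix. PI16 [ENSMFAG00000043273], peptidase inhibitor 16, is known as a marker of adventitial fibroblasts. CHRDL1 [ENSMFAG00000036630], chordin-like 1, is a secreted antagonist of bone morphogenetic proteins (BMPs), and GPC3 [ENSMFAG00000044116] is a glypican, a heparan sulphate proteoglycan held to the cell surface by a lipid anchor. A spot is wider than most cells, so its level mixes the cell types beneath it. Identifiers in brackets are those of the M. fascicularis features.

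The M. fascicularis sections held between 1136433 and 7073134 UMIs under tissue, with a median per tissue spot of 700.0 to 5145 in batch 1 and 398 to 1671 in batch 2. Depth came to 190376 and 264661 UMIs in the sections labelled M. mulatta and to 595020 and 12595205 in those labelled P. anubis. For section 3 of the male of batch 2 only gene totals were used and no spots were analysed here, which leaves 15 M. fascicularis sections with spots. Gene identifiers have the P. anubis prefix in the sections labelled M. mulatta and the M. mulatta prefix in those labelled P. anubis, so labels and files may be crossed between these species. The labelled tissue was checked against neuron markers: in M. fascicularis, 14 of 14 neuron-list genes with a symbol had UMIs in both batches. The list held 1.99% to 3.63% of a section's UMIs there and 3.04% to 4.49% in the sections labelled P. anubis. In the sections labelled M. mulatta it held only 0.659% to 1.52%, and 1 of 14 genes, INA, had no UMIs.

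Levels are given as CPM, a gene's UMIs per 1000000 UMIs under tissue in that section, and are compared between samples of one gene, not between genes. MGP was at 140.4, 49.8, 88.4 and 38.1 CPM in the sections of the female of batch 1 and at 62.7, 75.4, 106 and 54.1 CPM in those of the male of batch 1. In batch 2 it was at 80.2, 32.4, 52.2 and 49.4 CPM in the female and at 8.7, 46.8, 15.8 and 6.16 CPM in the male. The batches overlapped, with 4 of 8 batch 2 sections below the lowest of batch 1, and the male of batch 2 was the lowest specimen at 19.4 ± 18.7 CPM (SD, n = 4 sections). In whole sections, fewer cells of a type and less RNA per cell cannot be told apart. PI16 was at 163, 55.9, 173 and 213 CPM in the sections of the female of batch 1 and at 73.2, 126, 148 and 106 CPM in those of the male of batch 1. In batch 2 it was at 6.28, 1.6, 2.41 and 3.91 CPM in the female and at 6.21, 3.15, 15.3 and 1.76 CPM in the male. Every batch 2 section lay below every batch 1 section: the highest of batch 2, 15.3 CPM, stood under the lowest of batch 1, 55.9 CPM. TGFBI was at 70.8, 41.9, 146 and 139.5 CPM in the sections of the female of batch 1 and at 45.3, 67.5, 158 and 105 CPM in those of the male of batch 1. In batch 2 it was at 6.97, 9.62, 7.73 and 8.59 CPM in the female and at 5.59, 6.83, 14.8 and 10.6 CPM in the male. The batches did not overlap for this gene either. GPC3 was at 77, 38.4, 100.2 and 78.7 CPM in the sections of the female of batch 1 and at 48.3, 52.7, 114 and 54.9 CPM in those of the male of batch 1. In batch 2 it was at 15.6, 29.4, 18.1 and 24.6 CPM in the female and at 4.97, 13.7, 15.8 and 7.92 CPM in the male. Again no batch 2 section reached the lowest batch 1 section. THBS4 was at 25.5, 14, 13.3 and 8.94 CPM in the sections of the female of batch 1 and at 17.7, 12, 14 and 5.8 CPM in those of the male of batch 1. In batch 2 it was at 5.11, 4.28, 5.07 and 2.73 CPM in the female and at 2.48, 0.525, 2.47 and 1.76 CPM in the male. The batches did not overlap for this thrombospondin, which rested on 1 to 24 UMIs in each batch 2 section.

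**Figure D1:**
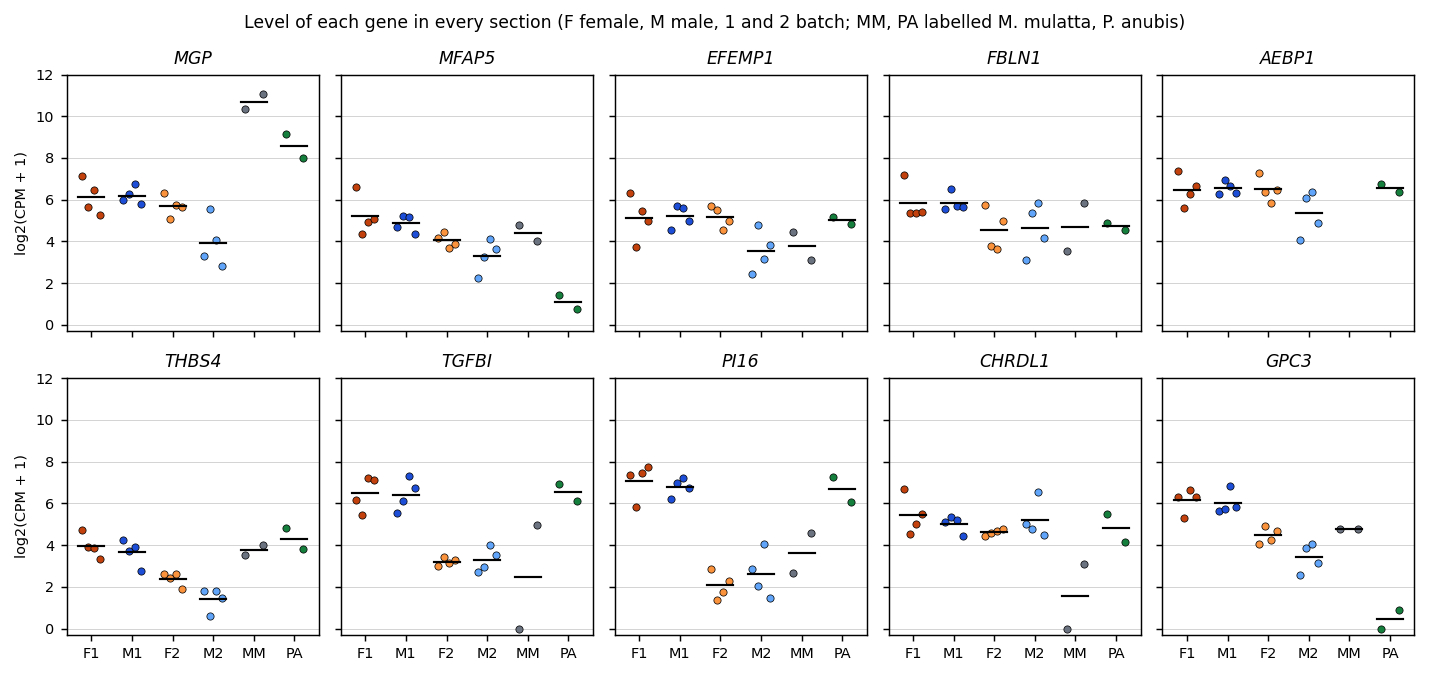
Each panel plots 1 gene as log2(CPM + 1) in every section (points) with the mean of the group (bar), for the female (F) and male (M) specimens of batches 1 and 2 and the sections labelled M. mulatta (MM) and P. anubis (PA). PI16 lies between 55.9 and 213 CPM in batch 1 and between 1.6 and 15.3 CPM in batch 2, and MGP is highest in the sections labelled M. mulatta.

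The ratio between batches was taken from the specimen means, as the mean over sexes of log2(batch 2 over batch 1). It was -4.76 for PI16, with -5.41 in females and -4.10 in males. For TGFBI it was -3.46, with -3.60 in females and -3.31 in males. The ratio of THBS4 was -2.31 and that of GPC3 -2.21. These 4 genes, of 10, had batch 2 sections wholly below batch 1, which holds for 5.93% of 11136 genes with at least 100 UMIs. The members were in part picked on this contrast, so nothing is read from the count. For the elastic fibre genes the ratio was -1.51 for MFAP5, -1.13 for FBLN1 and -0.86 for EFEMP1, and in each the batches overlapped. MFAP5 ran from 19.2 through a median of 30.9 to 95.7 CPM in batch 1 and from 3.73 through 12.8 to 21.2 CPM in batch 2. FBLN1 ran from 40.3 through 47.4 to 144 CPM in batch 1 and from 7.77 through 23.7 to 56.8 CPM in batch 2. EFEMP1 ran from 12.4 through 36.7 to 79.5 CPM in batch 1 and from 4.35 through 24.5 to 50.7 CPM in batch 2. By the mean ratio, AEBP1 (-0.49) and CHRDL1 (-0.36, from ratios of opposite sign) differed least between batches. AEBP1 averaged 95.8 ± 35.1 CPM in batch 1 and 72.2 ± 43 CPM in batch 2 (SD, n = 8 sections each). Its ratio was -0.01 in females and -0.97 in males. The ratio of EFEMP1 was likewise smaller in females, -0.16 against -1.55 in males, and so was that of MGP, -0.56 against -1.94. CHRDL1 had a ratio of -1.10 in females and 0.39 in males, and the sign in males rested on 1 section of batch 2 at 90.8 CPM, without which the male ratio was -0.30.

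Other quantities moved with the batch. The summed fibroblast list, 10 of 10 genes with UMIs in both batches, ran from 800.1 to 2565 CPM in batch 1 and from 156 to 474 CPM in batch 2. The smooth muscle list, 9 of 9 genes with UMIs, ran from 235 to 1167 CPM in batch 1 and from 144 to 551 CPM in batch 2, with overlap. The list of myelinating Schwann cells ran from 3302 to 9061 CPM in batch 1 and from 1918 to 4024 CPM in batch 2, with overlap. The adipocyte list went the other way without overlap, from 1091 to 1638 CPM in batch 1 and from 2380 to 6009 CPM in batch 2. The neuron list was close in both, 22589 to 36283 against 19932 to 36260 CPM. Within M. fascicularis, batch also went with the specimens and with the Space Ranger version, so these cannot be told apart. The part of cell-type content, fibroblasts included, in the difference was not tested.

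In the sections labelled with other species, CPM was taken over 13101 symbols shared by all 3 feature sets, and values of M. fascicularis below are on that scale too. MGP stood at 2511 and 4212 CPM in the sections labelled M. mulatta (244 and 570 UMIs) and at 1023 and 465 CPM in those labelled P. anubis. The 16 M. fascicularis sections ran from 9.31 through a median of 82 to 211 CPM, so the sections of both other labels lay above all of them. MFAP5 was at 3.06 and 1.32 CPM in the sections labelled P. anubis (1 and 9 UMIs), where the M. fascicularis range was 5.72 to 144 CPM. The exact 95% Poisson limit of the single UMI, 17 CPM, reached into that range, and that of the 9 UMIs, 2.51 CPM, did not. GPC3 had 11 UMIs or 1.62 CPM in the deeper section labelled P. anubis, below the M. fascicularis range of 7.63 to 176 CPM. It had 0 UMIs in the other section, where 3 UMIs would be 9.17 CPM, so a level within the range is not excluded there. These bounds cover counting error only. PI16 and TGFBI were within the M. fascicularis range there, PI16 at 281 and 123 CPM and TGFBI at 223 and 124 CPM. That range spans both batches, and these sections are labelled batch 2. Over all features PI16 was at 155 and 66.8 CPM and TGFBI at 123 and 67.1 CPM there. These values lay within the M. fascicularis ranges of batch 1, 55.9 to 213 and 41.9 to 158 CPM. They lay above the highest M. fascicularis sections of batch 2, 15.3 and 14.8 CPM. Of the 9 shared members, 3 had values outside the M. fascicularis range in both sections labelled P. anubis, as did 33.2% of 9124 shared genes with at least 100 UMIs. With 3 UMIs set for a section at 0, an alternative added after the data were seen, MGP and MFAP5 remained, 2 of 9 against 29.7% of the same genes. In those labelled M. mulatta it was 2 of 9, MGP above and CHRDL1 below (0 and 2 UMIs), against 61.1% of the same genes, or 42.1% with 3 UMIs set for 0. The upper 95% Poisson limits of CHRDL1 there, 38 and 53.4 CPM, reached above the lowest M. fascicularis section at 31.9 CPM. AEBP1 carried no symbol in the features of the sections labelled M. mulatta. In those labelled P. anubis it was at 106 and 80.7 CPM over all features, within the M. fascicularis range. Over all features, the fibroblast list held 4465 and 8411 CPM in the sections labelled M. mulatta. It held 2260 and 1106 CPM in those labelled P. anubis and 156 to 2565 CPM in M. fascicularis. The smooth muscle list held 84 and 151 CPM, 445 and 219 CPM, and 144 to 1167 CPM, in the same order of labels. Species, feature set, specimen, depth and cell-type content cannot be told apart in these 4 sections.

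Spots under tissue with at least 200 UMIs were ordered within each section by the share of their UMIs that came from the neuron list, and the top 25% were called neuron-high. MGP was at 24.1 CPM in neuron-high spots against 106 in the other spots of the female of batch 1, 22.6 against 109.7 in the male of batch 1, 20.6 against 85.9 in the female of batch 2 and 6.01 against 25.5 in the male of batch 2. The log2 ratio was thus nearly equal in the 4 specimens, -2.14 ± 0.10 (SD, n = 4). CHRDL1 was similarly even at -1.65 ± 0.11, from 13.4 CPM in neuron-high to 41.7 CPM in other spots on average. GPC3 stood at -1.29 ± 0.23, THBS4 at -1.39 ± 0.41 and AEBP1 at -1.40 ± 0.55. The elastic fibre genes varied more between specimens, with FBLN1 at -1.53 ± 0.76, EFEMP1 at -1.38 ± 0.62 and MFAP5 at -1.19 ± 0.89, and the male of batch 2 was the least depleted in each. MFAP5 was at 6.01 CPM in neuron-high and 5.74 CPM in other spots of that male, the single case of 40 in which a member was not lower. The smallest depletion was that of PI16, -0.92 ± 0.33, and of TGFBI, -0.78 ± 0.38. A level below the other spots in 4 of 4 specimens was found for 9 of 10 members and for 33.5% of 11068 genes with at least 100 UMIs. The members were picked on this contrast, so the count is a description.

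The depletion is one of share, not for every member one of UMIs captured. Neuron-high spots held more UMIs than the others, on average 5657 per spot where the neuron share was in its top 25% and 882 where it was in its lowest 25%. Counted as UMIs per spot, MGP remained lower in neuron-high spots in 4 of 4 specimens, with a mean log2 ratio of -1.01, and CHRDL1 likewise with -0.52. TGFBI was then higher in neuron-high spots in 4 of 4 specimens, with 57.5 against 43.4 UMIs per 100 spots in the female of batch 1 and a mean log2 ratio of 0.35. PI16 was higher in 2 of 4, with a mean of 0.20, and MFAP5 and GPC3 were lower in 2 of 4, with means of -0.06 and -0.16. On this scale 5 of 10 members were lower in 4 of 4 specimens. No share over all genes was taken on this scale, so the count is a description.

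Distance from neuron-high spots follows the contrast used to choose the members, so its values are a description. MGP averaged 18.3, 36.8, 72 and 394 CPM in neuron-high spots, in their neighbours, 2 spots away and 3 or more spots away, in that order, and it followed this order in 4 of 4 specimens. CHRDL1 averaged 13.4, 25.5, 45.6 and 129 CPM, AEBP1 37.7, 65, 101 and 432 CPM and GPC3 24.8, 39.8, 59.3 and 144 CPM, each in the same order in 4 of 4 specimens. The remaining 6 members followed it in 3 of 4 specimens, and the male of batch 2 was the exception in MFAP5, EFEMP1 and FBLN1. FBLN1 went from 18.4 ± 8.24 to 255 ± 126 CPM (SD, n = 4) from the first to the last class, a mean log2 ratio of 3.73. The mean log2 ratio of the last to the first class was 4.44 for MGP, 3.42 for EFEMP1, 3.21 for MFAP5, 2.38 for PI16 and 1.69 for TGFBI. Spots were also cut into 4 equal classes by neuron-list share. From the lowest class to the highest, MGP averaged 397, 69.9, 29.4 and 18.3 CPM, and PI16 235, 89.9, 55.4 and 41.6 CPM. MGP followed this order in 4 of 4 specimens and PI16 in 2 of 4. In the lowest class, PI16 ran from 9.89 to 472 CPM by specimen. Depth fell along the same axis, from 5653 UMIs per spot in neuron-high spots to 1084 at 3 or more spots away, and its part was not tested. In the sections labelled P. anubis, MGP was at 97.3 CPM in neuron-high and 427 CPM in other spots. The 9 members with UMIs in both classes there (GPC3 on 2 and 9 UMIs) were all lower in neuron-high spots, with log2 ratios from -2.35 to -0.85. No share over all genes was taken in the sections labelled P. anubis or M. mulatta. In the sections labelled M. mulatta, where 320 spots had at least 200 UMIs, MGP was at 240.5 against 2064 CPM, on 10 and 144 UMIs.

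**Figure D2:**
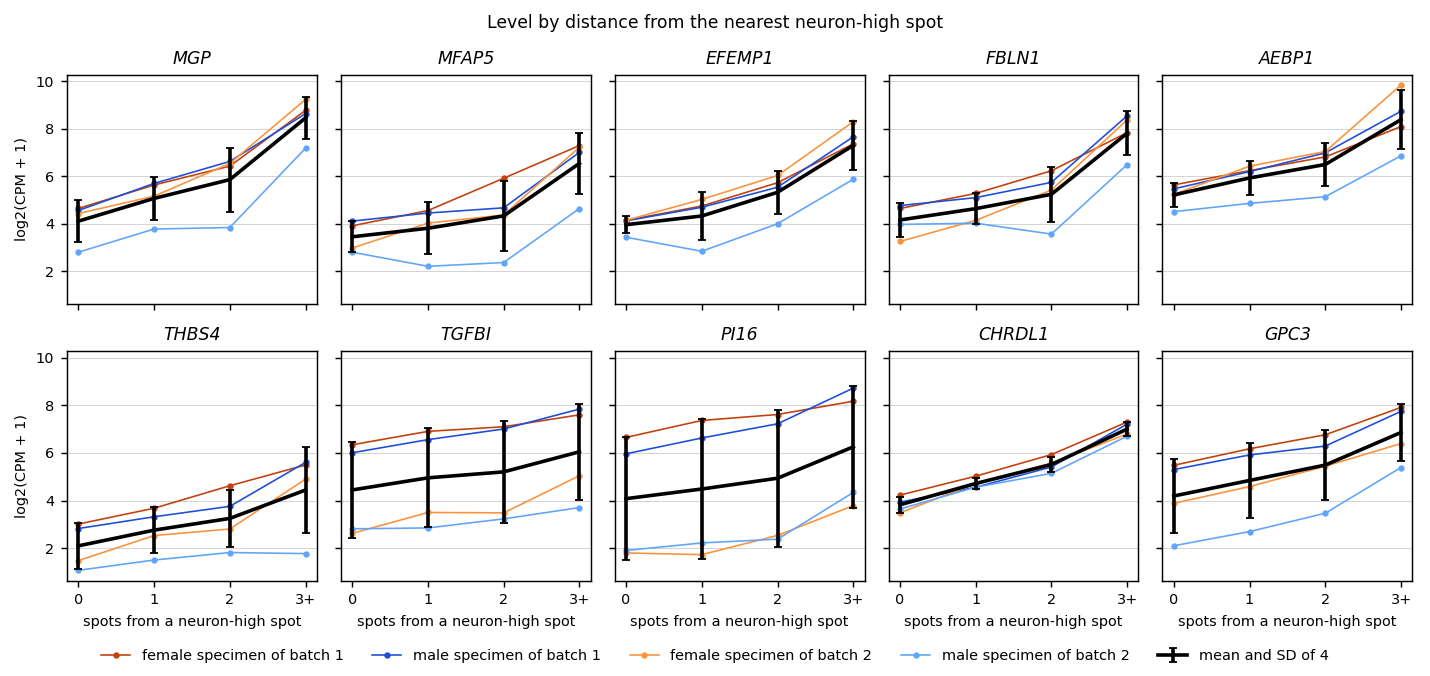
Each panel plots 1 gene as log2(CPM + 1) against the distance, in spots, from the nearest neuron-high spot, with a line per specimen and the mean and SD of 4 specimens in black. MGP goes from 18.3 to 394 CPM on average, while the specimens of batch 1 lie above those of batch 2 throughout for PI16 and TGFBI.

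Position in the section was not used to choose the members, so it was tested. Edge spots, those that touch an array position off tissue, were compared with interior spots from the third layer inward, in UMI counts summed per specimen and class, with the specimen as a block. MGP was at 187 CPM at the edge against 35.4 inside in the female of batch 1, 202 against 33.8 in the male of batch 1, 145 against 28.6 in the female of batch 2 and 24.6 against 14.4 in the male of batch 2. The edge was higher in each specimen, although the edge of the male of batch 2 lay below the interior of the others (log2 fold change 2.31, SE 0.15, adjusted p = 3.18e-06, edgeR's quasi-likelihood test, Benjamini-Hochberg adjustment). FBLN1 was at 111 CPM at the edge against 26.8 inside in the female of batch 1, 151 against 31.1 in the male of batch 1, 86.2 against 11.8 in the female of batch 2 and 34.4 against 10.3 in the male of batch 2. Here no edge value overlapped an interior value (log2 fold change 2.29, SE 0.13, adjusted p = 1.18e-06, edgeR's test, same adjustment). In the same order of specimens, EFEMP1 was at 71 against 22, 94.3 against 19.9, 99.8 against 21.2 and 17.2 against 6.88 CPM (log2 fold change 2.01, SE 0.12, adjusted p = 1.73e-06, edgeR's test, same adjustment). MFAP5 was at 68.4 against 20.4, 73.5 against 13.8, 54.2 against 7.97 and 9.84 against 4.38 CPM (log2 fold change 2.20, SE 0.16, adjusted p = 1.13e-05, edgeR's test, same adjustment). Both were higher at the edge in 4 of 4 specimens, and the male of batch 2 kept its edge value below the interior of some other specimens. AEBP1 was at 129 against 65.4, 201 against 58.2, 283 against 48.1 and 45.5 against 26.9 CPM (log2 fold change 1.66, SE 0.21, adjusted p = 7.56e-04, edgeR's test, same adjustment). THBS4 was at 29.4 against 7.87, 31.4 against 5.44, 13.9 against 1.67 and 4.3 against 0.626 CPM (log2 fold change 2.36, SE 0.19, adjusted p = 3.32e-05, edgeR's test, same adjustment). MGP, FBLN1, EFEMP1, MFAP5, AEBP1 and THBS4 thus rose at the edge by 1.66 to 2.36 on the log2 scale. GPC3 was at 98.7 against 71, 110.2 against 51.1, 48.2 against 14 and 7.38 against 6.57 CPM (log2 fold change 0.97, SE 0.17, adjusted p = 0.00645, edgeR's test, same adjustment). CHRDL1 was at 59.7 against 30, 53.4 against 24.7, 37.6 against 20.2 and 22.1 against 30 CPM, lower at the edge in the male of batch 2 (log2 fold change 0.81, SE 0.16, adjusted p = 0.0175, edgeR's test, same adjustment). PI16 was at 133 against 161, 141 against 105, 6.02 against 2.31 and 3.69 against 5.63 CPM, higher at the edge in 2 of 4 specimens, and did not pass (log2 fold change 0.10, SE 0.15, adjusted p = 0.828, edgeR's test, same adjustment). TGFBI was at 117 against 115, 129 against 86.7, 17.7 against 5.58 and 6.15 against 7.82 CPM, higher at the edge in 3 of 4, and did not pass either (log2 fold change 0.41, SE 0.17, adjusted p = 0.286, edgeR's test, same adjustment).

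In all, 8 of 10 members were called higher at the edge, where 2.42% of 10279 genes were, and their median log2 fold change was 1.84 against 0.00 over all genes tested. By layer, MGP averaged 139.7, 54.6, 35.9 and 25.1 CPM from the first layer to the fourth and deeper, and FBLN1 95.6, 43.8, 29.5 and 16.8 CPM. PI16 averaged 70.9, 64.6, 64 and 70.9 CPM. By these means, the largest step of MGP and FBLN1 lay between the first layer and the second. In the male of batch 2, however, MGP rose over that step, from 24.6 to 26.4 CPM. Edge spots held fewer UMIs than interior spots by the median in 11 of 15 sections, and the median share of neuron-high spots was 30.3% at the edge and 22.7% inside. With spots of at least 1000 UMIs, 8 of 10 members were called higher, and without neuron-high spots 9 of 10, TGFBI among them (log2 fold change 0.78, adjusted p = 0.0306, edgeR's quasi-likelihood test, Benjamini-Hochberg adjustment). Smooth muscle genes also rose at the edge, 4 of 6 tested, and fibroblast genes, 5 of 6, and the summed smooth muscle list ran from 248 to 895 CPM at the edge and from 172 to 349 CPM inside. Their part in the members' result was not tested. Of the members' UMIs in the M. fascicularis sections with spots, 8.32% (PI16) to 18.8% (MFAP5) were counted in spots off tissue, against 7.54% of all UMIs. Leaving out a specimen kept 6 to 8 members called: CHRDL1 was lost without the female of batch 1, the female of batch 2 or the male of batch 1 (adjusted p = 0.103, 0.0912 and 0.249, edgeR's test, same adjustment), and GPC3 without the male of batch 1 (adjusted p = 0.116). CHRDL1 was also lost with DESeq2 (adjusted p = 0.0513), and TGFBI was called without the filter on low counts (log2 fold change 0.36, adjusted p = 0.0127, edgeR's test, same adjustment). Without the specimen block 0 genes were called.

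**Figure D3:**
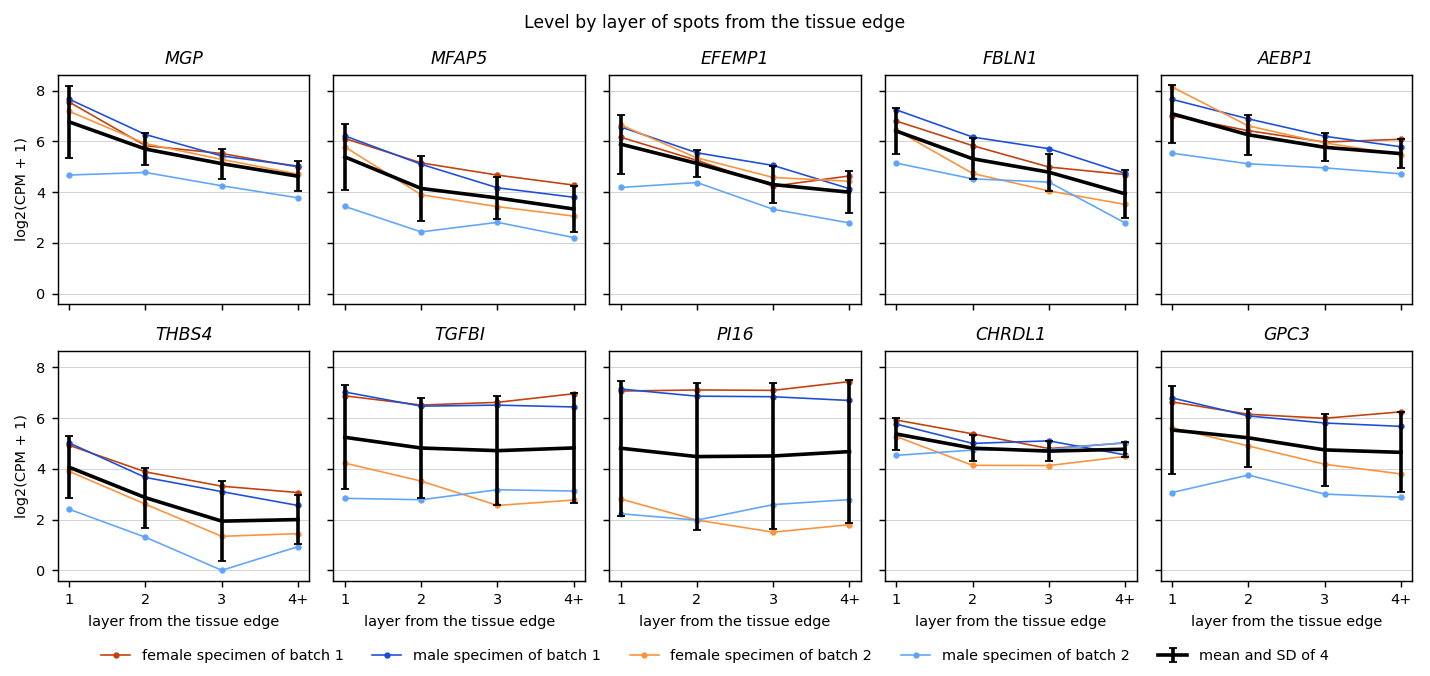
Each panel plots 1 gene as log2(CPM + 1) against the layer of spots counted from the tissue edge (1 is the edge), with a line per specimen and the mean and SD of 4 specimens in black. MGP averages 139.7 CPM in layer 1 and 25.1 CPM from layer 4 on, and PI16 70.9 and 70.9 CPM.

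Among spots outside the neuron-high class, the 25% with the highest share of fibroblast-list UMIs (collagens, DCN, LUM, PDGFRA and others, with no member in the list) were compared with the rest. Only spots with a UMI of the list could enter the class. In the male of batch 2 it therefore held under 25%, with 267 against 946 spots in section 2 and 91 against 375 in section 4. MFAP5 was at 302 CPM in fibroblast-high spots against 23.2 in the rest in the female of batch 1, 212 against 17.1 in the male of batch 1, 177 against 14.2 in the female of batch 2 and 11.6 against 3.49 in the male of batch 2. It was higher in 4 of 4 specimens (log2 fold change 3.55, SE 0.24, adjusted p = 1.17e-05, edgeR's quasi-likelihood test, Benjamini-Hochberg adjustment). In the same order of specimens MGP was at 659 against 53.3, 629 against 51.5, 538 against 51.6 and 60.5 against 12.1 CPM, with no overlap (log2 fold change 3.37, SE 0.23, adjusted p = 1.17e-05, edgeR's test, same adjustment). THBS4 was at 102 against 10.4, 83.5 against 7.5, 53.2 against 3.17 and 6.63 against 0.318 CPM (log2 fold change 3.61, SE 0.23, adjusted p = 1.17e-05, edgeR's test, same adjustment). Both values of THBS4 in the male of batch 2 are low, but their direction was that of the other specimens. FBLN1 was at 437 against 34.8, 495 against 39.5, 326 against 22.5 and 36.5 against 15.2 CPM (log2 fold change 3.33, SE 0.35, adjusted p = 2.06e-04, edgeR's test, same adjustment). EFEMP1 was at 272 against 27.9, 295 against 27.3, 340.1 against 36.5 and 29 against 7.62 CPM (log2 fold change 3.17, SE 0.22, adjusted p = 1.28e-05, edgeR's test, same adjustment). AEBP1 was at 479 against 72.1, 574 against 84.3, 961 against 91.4 and 61.3 against 29.2 CPM (log2 fold change 2.63, SE 0.32, adjusted p = 5.00e-04, edgeR's test, same adjustment). The batch 2 female held the highest AEBP1 and EFEMP1 values of the 4 specimens in these spots. GPC3 was at 428 against 69.3, 333 against 57.2, 177 against 19.9 and 21.6 against 5.72 CPM (log2 fold change 2.70, SE 0.21, adjusted p = 2.31e-05, edgeR's test, same adjustment), and CHRDL1 at 225 against 37.2, 180.0 against 29, 147 against 27 and 41.5 against 30.5 CPM (log2 fold change 2.18, SE 0.30, adjusted p = 0.00126). PI16 was at 652 against 142, 576 against 107, 14.5 against 2.69 and 5.8 against 5.08 CPM (log2 fold change 2.12, SE 0.27, adjusted p = 7.71e-04, edgeR's test, same adjustment), and TGFBI at 423 against 104, 357 against 93, 53.2 against 8.67 and 6.63 against 7.62 CPM (log2 fold change 1.91, SE 0.29, adjusted p = 0.00223). PI16 was higher in 4 of 4 specimens and TGFBI in 3 of 4: in the male of batch 2 the levels of both classes of spots were low and close, and TGFBI was lower in fibroblast-high spots. All 10 members were called higher, against 9.64% of 9637 genes, with a median log2 fold change of 2.93 against 0.01 over all genes. CHRDL1 and TGFBI were lost without the female of batch 2 (adjusted p = 0.0503 and 0.0503, edgeR's test, same adjustment), and all 10 without the specimen block.

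Because fibroblast-high spots also differ in neuron content, the quantity on which members were picked, and in other cell types, those values are given here. The neuron list held 1.51% ± 0.353 of UMIs in fibroblast-high and 2.27% ± 0.199 in the other spots (SD, n = 4), and 6 of 14 neuron genes were called lower. The smooth muscle list ran from 299 to 2837 CPM against 192 to 457 CPM, and 6 of 6 of its tested genes were called higher. The perineurial list averaged 1198 against 334 CPM (3 of 3 genes tested called higher), the endothelial list 502 against 240.4 CPM (6 of 7) and the list of myelinating Schwann cells 10037 against 4906 CPM (5 of 8), and the part of these in the members' result was not tested. By the median, 34% of fibroblast-high spots and 17.5% of the others lay at the edge, and fibroblast-high spots were shallower in 12 of 15 sections. In the male of batch 2 they were deeper, with median UMIs of 2288 against 2114, 893 against 743 and 2162 against 650. Within the second-lowest of these 4 classes of neuron share, an alternative added after the data were seen, 9 of 9 members tested were called higher (THBS4 fell under the count filter), MGP at a log2 fold change of 3.02 and TGFBI, the smallest, at 1.71. With spots of at least 1000 UMIs, 10 of 10 were called. The share of all genes called in these alternative runs is not given here, so the counts have no background beside them.

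Related genes of the matrix, from lists that hold no member, were followed in the same edge and fibroblast-high comparisons. Of the elastic fibre and microfibril list, 10 of 11 genes tested were called higher in fibroblast-high spots and 2 of 11 at the edge. ELN, elastin itself, rose in both, at the edge from 2.78 ± 2.26 to 7.85 ± 7.45 CPM (SD, n = 4, log2 fold change 1.53, SE 0.23, adjusted p = 0.00235, edgeR's quasi-likelihood test, Benjamini-Hochberg adjustment) and in fibroblast-high spots by 3.21. MFAP4, another microfibril protein, rose at the edge by 1.14, and MFAP2 and LTBP1 rose in fibroblast-high spots by 2.65 and 2.09. Of the matricellular list, 5 of 9 were called higher at the edge and 5 of 9 in fibroblast-high spots, with TNC, tenascin C, up by 2.00 and 2.65 and THBS1 by 1.5 and 2.51. CCN1 rose at the edge by 1.23 and THBS2 in fibroblast-high spots by 2.43. Of the BMP antagonists, BMPs and glypicans, 0 of 6 genes tested were called at the edge and 1 of 6, FST (follistatin, which binds activins and BMPs), in fibroblast-high spots, at 13.2 ± 1.23 against 4.31 ± 2.06 CPM (SD, n = 4, log2 fold change 1.72, adjusted p = 0.0107, edgeR's test, same adjustment).

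Smooth-muscle-high spots, the top 25% by the share of ACTA2, MYH11, TAGLN and other contractile genes among the same spots, were compared in the same way. In section 4 of the male of batch 2 the class held under 25%, with 95 against 371 spots, as only spots with a list UMI could enter. MGP was at 717 CPM in smooth-muscle-high spots against 36.9 in the rest in the female of batch 1, 567 against 55.9 in the male of batch 1, 629 against 44.9 in the female of batch 2 and 80 against 9.51 in the male of batch 2. No value of one class overlapped the other (log2 fold change 3.72, SE 0.21, adjusted p = 7.70e-07, edgeR's quasi-likelihood test, Benjamini-Hochberg adjustment). MFAP5 averaged 152 ± 101 against 15.9 ± 8.48 CPM (SD, n = 4, log2 fold change 3.20, SE 0.24, adjusted p = 4.84e-06, edgeR's test, same adjustment). THBS4 followed with a log2 fold change of 3.15 (SE 0.24), EFEMP1 with 3.02 (0.18), FBLN1 with 2.75 (0.23) and AEBP1 with 2.64 (0.28). GPC3 rose by 2.31, CHRDL1 by 2.15 and TGFBI by 1.77. PI16 rose least, at 387 against 164, 403 against 125, 12.9 against 2.81 and 5.06 against 5.35 CPM in the 4 specimens in the order above (log2 fold change 1.40, SE 0.22, adjusted p = 8.78e-04, edgeR's test, same adjustment), and was not higher in the male of batch 2. All 10 members were called higher, as were 12.5% of 9633 genes, and 10 of 10 stayed called in the runs without any 1 section or specimen. Smooth-muscle-high spots held fewer neuron-list UMIs, 1.57% against 2.27%, with 7 of 14 neuron genes called lower, were shallower in 14 of 15 sections and lay more often at the edge in 15 of 15. These spots were also fibroblast-rich: the fibroblast list ran from 350.2 to 7104 CPM against 165 to 1901 CPM, and 6 of 6 of its genes tested were called higher, so vessel wall and other connective tissue were not separated. Within the second-lowest class of neuron share, 9 of 9 members tested were called higher, MGP at 3.25 and PI16 at 0.76. The share of all genes called in that run is not given here.

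Myelin-high spots, the top 25% by the share of MBP, PMP22 and other genes of myelinating Schwann cells, stand for nerve fibres. CHRDL1 was at 242 CPM in myelin-high spots against 38.1 in the rest in the female of batch 1, 178 against 33.1 in the male of batch 1, 173 against 26.7 in the female of batch 2 and 128 against 23 in the male of batch 2. Every myelin-high value exceeded every value of the rest (log2 fold change 2.63, SE 0.14, adjusted p = 2.19e-12, edgeR's quasi-likelihood test, Benjamini-Hochberg adjustment). CHRDL1 remained called in each alternative run, with log2 fold changes between 2.08 and 2.86. PI16 was at 352 against 173, 428 against 132, 5.69 against 3.38 and 18.4 against 3.83 CPM in the order of specimens above (log2 fold change 1.44, SE 0.17, adjusted p = 1.26e-06, edgeR's test, same adjustment), higher in 4 of 4. GPC3 was at 217 against 91.1, 175 against 77.6, 66.4 against 28.7 and 20.6 against 8.93 CPM (log2 fold change 1.27, SE 0.15, adjusted p = 5.92e-07, edgeR's test, same adjustment), also in 4 of 4. MGP was at 119.5 against 105, 135 against 108, 56.9 against 87.8 and 36.7 against 24.2 CPM, higher in 3 of 4, and did not pass (log2 fold change 0.17, SE 0.16, adjusted p = 0.473, edgeR's test, same adjustment). Of the rest, THBS4, MFAP5, TGFBI, AEBP1, EFEMP1 and FBLN1 were called higher by 0.89, 0.83, 0.81, 0.65, 0.50 and 0.47. Of these 6, MFAP5 and AEBP1 were higher in 4 of 4 specimens, THBS4, TGFBI and EFEMP1 in 3 and FBLN1 in 2. In total 9 of 10 members were called higher, where 15% of 9710 genes were. Myelin-high spots held fewer neuron-list UMIs, 1.37% against 2.27%, and were shallower in 15 of 15 sections. Connective tissue lists were higher in the same spots: the fibroblast list averaged 3040 against 1146 CPM (6 of 6 genes tested called higher), the smooth muscle list 1259 against 439.5 CPM (4 of 6) and the perineurial list 815 against 379.6 CPM (3 of 3), and their part in the members' result was not tested. Within the second-lowest class of neuron share, 2 members were called higher, CHRDL1 (2.08, SE 0.20) and PI16 (0.90, SE 0.17). MGP was called lower there, with a log2 fold change of -0.80 (SE 0.22, adjusted p = 0.0117, edgeR's test, same adjustment), and the signs of EFEMP1 and THBS4 turned without a call. With spots of at least 1000 UMIs, or with the top 10% of spots, 5 members were called higher, and without the female or without the male of batch 1 also 5. DESeq2 called 6 members, edgeR without the filter on low counts 7, and without the specimen block 1, CHRDL1.

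**Figure D4:**
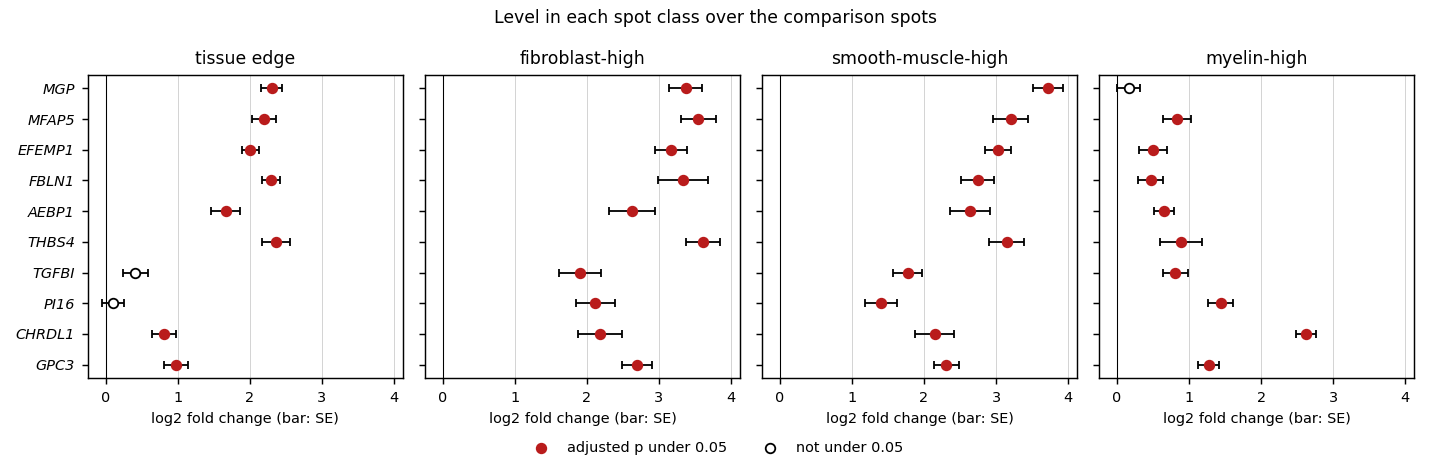
Points give each gene's log2 fold change with its standard error for the edge against the interior and for fibroblast-high, smooth-muscle-high and myelin-high spots against the rest, from 4 specimens. Filled points pass an adjusted p of 0.05. At the edge PI16 stands at 0.10 and TGFBI at 0.41, both open, and in myelin-high spots CHRDL1 stands at 2.63 and MGP at 0.17.

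Between sexes, with the batch in the model and 1 summed library per specimen, 0 of 12650 genes were called (0%) and 0 of 10 members, by edgeR's quasi-likelihood test. At an unadjusted p under 0.05 there were 169 genes and 1 member, and DESeq2 called 0 genes. That member was GPC3, at 76.9 CPM in the female and 64.6 in the male of batch 1 and at 22.6 and 10 in batch 2 (log2 fold change 0.75, SE 0.29, adjusted p = 0.998, edgeR's quasi-likelihood test, Benjamini-Hochberg adjustment). MGP was at 71.6 and 71 CPM in batch 1 and at 51.9 and 18.8 in batch 2, a log2 ratio of female over male of 0.01 and 1.46. EFEMP1 showed -0.07 and 1.71, and PI16 0.42 and -1.05. In 5 of 10 members the direction differed between batches. Without the filter on low counts 67 genes and 0 members were called, and with 1 specimen per sex and batch a difference in the members is not excluded.

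Moran's I scores spatial clustering, near 0 where a gene's UMIs fall without spatial order and toward 1 where they cluster. In the authors' deposited table MGP had a median I of 0.216 (0.0886 to 0.286) in batch 1 and 0.0532 (-0.00895 to 0.162) in batch 2, with an adjusted p under 0.05 in 14 of 16 sections. AEBP1 had 0.176 (0.0808 to 0.232) in batch 1 and 0.0423 (0.00232 to 0.223) in batch 2 in the authors' deposited table, with 13 of 16 sections past the threshold. FBLN1 reached the highest single value among members in M. fascicularis, 0.338 in 1 male section of batch 1, in the authors' deposited table. These 3 genes thus formed the highest medians over all 16 sections. EFEMP1 and MFAP5 had medians of 0.0594 and 0.050 in the authors' deposited table (16 sections), and GPC3, THBS4 and CHRDL1 0.0336, 0.0246 and 0.0221. PI16 had a median I of 0.104 (0.0226 to 0.137) in batch 1 and -0.0014 (-0.00435 to 0.00529) in batch 2 in the authors' deposited table, and TGFBI 0.0333 (0.0217 to 0.0843) in batch 1 and -7.07e-05 (-0.00598 to 0.0132) in batch 2. PI16, TGFBI and THBS4 were past the threshold in 0 of 8 batch 2 sections in the authors' deposited table, the batch in which they were also lowest in level, and the part of depth in I was not tested. Over member and section pairs, 76 of 80 in batch 1 and 26 of 80 in batch 2 had an adjusted p under 0.05 in the authors' deposited table, against 21.3% and 10.9% of all gene and section pairs (16.2% over both batches). The members were in part picked on a contrast between spots of a section, and sections share specimens, so these counts are a description. In the deeper section labelled P. anubis, I was 0.40 for MGP, 0.191 for AEBP1 and 0.131 for EFEMP1 in the authors' deposited table.

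To compare single spots at one depth, spots with at least 1000 UMIs were thinned at random to 1000 UMIs, which left 11090 of 18594 spots. By specimen this kept 2683 of 3879, 3580 of 4998, 3053 of 6260 and 1774 of 3457 spots, for the female and male of batch 1 and the female and male of batch 2. A UMI of MGP was found in 2.44% ± 1.65 of neuron-high and 6.93% ± 4.08 of other spots (mean ± SD, n = 4 specimens), and a UMI of AEBP1 in 4.8% ± 2.04 of neuron-high and 10.1% ± 4.56 of other spots. CHRDL1 was found in 1.98% ± 0.592 of neuron-high and 4.73% ± 2.24 of other spots, and FBLN1 in 1.96% ± 0.856 of neuron-high and 5.64% ± 3.18 of other spots. PI16 was found in 4.72% ± 5.26 of neuron-high and 9.61% ± 10.8 of other spots, with an SD that spans the batches: from 0.328% to 17.9% of all thinned spots by specimen. Thinned to 500 UMIs, which kept 14724 spots, MGP was found in 1.48% of neuron-high and 5.49% of other spots. Without thinning, MGP was found in 8.0% of neuron-high and 10.4% of other spots. The order turned at the deposited depth for 4 members, TGFBI (18.1% against 13.6%), PI16 (17.8% against 16.1%), GPC3 (12.9% against 11.8%) and AEBP1 (17.6% against 17%). UMIs of 3 or more members met in 7.68 ± 6.23% of other and 1.38 ± 1.47% of neuron-high thinned spots (SD, n = 4), and no member was seen in 67.3% and 78.5%.

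All 45 pairs of members shared more thinned spots than the product of their shares within each section gives, by a median factor of 2.52 and from 1.47 to 5.1. The members were chosen in part for a shared low level in neuron-high spots, so a factor above 1 is no result of its own. MGP and EFEMP1 met in 167 spots against 37 expected, which is 25.4% of MGP spots and 35.2% of EFEMP1 spots. MGP and MFAP5 met in 122 against 28.3, that is 18.6% of MGP spots and 35% of MFAP5 spots. The highest factor, 5.1 for MFAP5 with THBS4, rested on 30 spots. At the low end, TGFBI and CHRDL1 met in 58 spots against 39.5 expected (7.05% of TGFBI and 13.5% of CHRDL1 spots), and PI16 and CHRDL1 in 81 against 50.7. PI16 and TGFBI, the pair with the largest batch ratios, met in 216 spots against 127, a factor of 1.7. The factors of PI16 with the other members, at 1.6 to 2.25, and of TGFBI, at 1.47 to 2.29, lay below those among MGP, MFAP5 and EFEMP1, at 3.85 to 4.51. Low factors were not particular to PI16 and TGFBI: CHRDL1 with GPC3 stood at 1.7 and FBLN1 with GPC3 at 2.27.

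**Figure D5:**
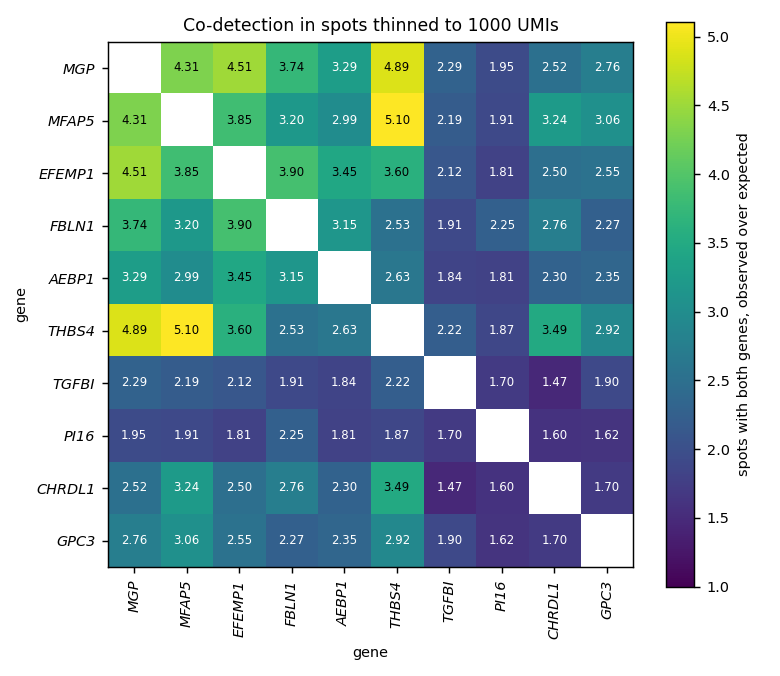
The heat map gives, for each pair of genes, the number of spots with a UMI of both over the number expected from their shares within each section, in 11090 spots thinned to 1000 UMIs (colour scale from 1). Pairs among MGP, MFAP5, EFEMP1 and FBLN1 lie between 3.2 and 4.51, pairs with PI16 between 1.6 and 2.25, and CHRDL1 with GPC3 at 1.7.

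Within sections, the correlation of log-scaled UMIs per spot between members averaged from 0.02 to 0.23 over 15 sections, with MGP and AEBP1 (0.23) and MGP and EFEMP1 (0.23) at the top. These values are weak and are given as a description. The spots of a section share a library, and depth differs between them. Among 6378 genes, the one most like MGP was TAGLN (0.30, from -0.01 to 0.46) and the one most like THBS4 was also TAGLN (0.15), a contractile gene of smooth muscle. SFRP4, a secreted inhibitor of WNT signalling, was the most like MFAP5 (0.25), EFEMP1 (0.23) and FBLN1 (0.22). IGFBP6, which binds insulin-like growth factors, was the most like AEBP1 (0.29) and GPC3 (0.19), and DCN, decorin, the most like PI16 (0.14) and TGFBI (0.12). The sum of the 10 members was most like IGFBP6 (0.40), DCN (0.37), SFRP4 (0.30), PTGDS (0.30) and TAGLN (0.29).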

How the data were processed

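The deposited matrices hold UMI counts for each spot. Per the file headers, Space Ranger 2.0.0 produced 12 of them and version 2.1.0 the other 7. The submitters' processing notes name the build Mmul_10, while the feature identifiers are those of other species in all but the sections labelled P. anubis, so the build is unsettled and no coordinates or sequences are given. Moran's I, a score, and its adjusted p-value per gene and section were deposited by the authors and only described.

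The 10 members and the gene lists were chosen with earlier results of these data known. Spots under tissue with at least 200 UMIs were used. Counts were summed per specimen and spot class and tested with edgeR 4.0.16 (TMM, filterByExpr, quasi-likelihood test, Benjamini-Hochberg over all genes, threshold 0.05), after the scripts were tested on simulated data. Genes of the list that defined a spot class were left out of that test. DESeq2 1.42.0, other filters, depths and spot classes, and runs without each section or specimen were alternatives. For the spot comparisons, the share of all genes called is given for the main runs only. All members were named. Of other genes, those named were the most correlated gene of each member (not reported here for CHRDL1), the 5 most correlated with their sum (genes with at least 0.2 UMIs per 10000) and, of each matrix list, at most 3 genes per direction with the largest change at the edge or in fibroblast-high spots. Intervals and floors (3 UMIs) cover counting error only.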

Additional observations from a re-analysis of the deposited data

Results flagged for a closer look

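In each specimen of 4 sections, a section was singled out when its gap to the nearest other section exceeded 0.829 of the whole range, which chance gives in about 5% of groups, and 4 of 40 groups were singled out. FBLN1 in section 1 of the female of batch 1 stood at 144 CPM, and the other 3 sections of that specimen lay between 40.3 and 41.9 CPM. FBLN1 in section 2 of the male of batch 1 stood at 90.5 CPM, and the other 3 sections of that specimen lay between 45.6 and 50.6 CPM. CHRDL1 in section 3 of the male of batch 2 stood at 90.8 CPM, and the other 3 sections of that specimen lay between 21.1 and 31.7 CPM. GPC3 in section 3 of the male of batch 1 stood at 114 CPM, and the other 3 sections of that specimen lay between 48.3 and 54.9 CPM. The CHRDL1 section is the one whose spots were not analysed here, so it entered the sex and batch values and no spot comparison.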

How the results depend on the processing

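All alternatives kept the direction of the edge, fibroblast-high and smooth-muscle-high values of the members except PI16 at the edge without the male of batch 1 (-0.13, with a range of -0.134 to 0.441 when 1 section or specimen was left out, never called). Without the specimen block 0, 0, 1 and 326 genes were called at the edge and in fibroblast-high, smooth-muscle-high and myelin-high spots, and 0, 0, 0 and 1 members. DESeq2 called 193 genes at the edge. With no filter on low counts, 786 genes were called at the edge, 2396 in fibroblast-high spots and 67 between sexes. Spots of at least 1000 UMIs gave 1317 genes in smooth-muscle-high and 877 in myelin-high spots, with 5 members called higher in the latter, and the top 10% of spots 2504 genes in fibroblast-high spots and 5 members in myelin-high spots. The second-lowest of 4 classes of neuron share, added after the data were seen, gave 639, 764 and 867 genes in fibroblast-high, smooth-muscle-high and myelin-high spots and 2 members in the last, where MGP (-0.80), EFEMP1 (-0.61) and THBS4 (-0.62) turned. EFEMP1 (-0.00128) and FBLN1 (-0.0321) also turned with the top 10% of spots. Leaving out 1 section or specimen gave 79 to 510 genes at the edge, 159 to 4047 in fibroblast-high, 527 to 3965 in smooth-muscle-high and 1467 to 3427 in myelin-high spots, and 6 to 8, 8 to 10, 10 to 10 and 5 to 9 members. Counts of genes moved by over 1.5 times at the edge without the female of batch 2 (177), the male of batch 1 (79) or the male of batch 2 (510). They did so in fibroblast-high spots without each of the females of batch 1 and 2 (248 and 159) and males of batch 1 and 2 (320 and 4047), likewise in smooth-muscle-high spots (845, 1038, 527 and 3965), and in myelin-high spots without the female (1504) or male of batch 1 (1467). Counted as UMIs per spot, 5 members were lower in neuron-high spots in 4 of 4 specimens (no share over all genes was taken). The mean log2 ratios of TGFBI (0.35) and PI16 (0.20) turned. Between sexes, without 1 section FBLN1 ranged from -0.375 to 0.17, TGFBI from -0.0437 to 0.313, PI16 from -0.265 to 0.171 and CHRDL1 from -0.326 to 0.125, none called. With sections as samples 0 genes were called with and without a replicate block, and FBLN1 (0.0453) and PI16 (0.0711) changed sign without it. The deviations of same-numbered female and male sections correlated at 0.242 to 0.425 in batch 1 and at -0.0737 to 0.0172 in batch 2, and 2 and 1 of 8 sections correlated best with their own number. Not every pair passed 0.1, so the numbers were not taken as pairs. Except where a value or the construction of the alternative shows it, the cause was not tested. Shallow sections, the single specimen per sex and batch, and the few UMIs of THBS4 and PI16 in batch 2 limit the precision.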
